A study of Trichoderma cf. simile with 24 samples.

Results

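In mycelium of Trichoderma cf. simile WF8, 57 of 12486 numbered gene models met a set of conditions on their levels with 3 lignite model compounds. Each was at least 2-fold from the control, in the same direction, with every compound 1 day after addition. Of these, 20 were higher and 37 were lower with all 3 compounds. They were selected on deposited FPKM values (read fragments scaled by gene length and library size), as log2 of the mean FPKM of 3 flasks plus 1. Each compound had to differ from the day 1 control by at least 1 on that scale with 1 sign. In addition, the control of day 3 had to lie within 1 of the control of day 1, and phenetole at day 3 within 1 of the day 3 control. The selection thus took genes whose day 1 level differed from the control with all compounds. On the same scale, their control differed by less than 1 between the days, and phenetole by less than 1 from the control at day 3. For genes of low FPKM, plain FPKM ratios can exceed 2-fold within these bounds. Because the values in these conditions chose the genes, those values are described here without a test. The 4-phenoxybenzoic acid and 9,10-dibutoxyanthracene libraries of day 3 did not enter the selection and were tested.

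The fungus is strain WF8, isolated from rotting wood close to a coal mine and grown here in shaken flasks of 100 mL Sabouraud maltose broth for 60 h before anything was added. Phenetole was added undiluted to 200 mg/L. 4-Phenoxybenzoic acid was added to 10 mg/L and 9,10-dibutoxyanthracene to 5 mg/L, both from stocks in dichloromethane, which at the stock strength comes to 5% and 2.5% of the culture by volume. Copper, manganese and veratryl alcohol are also listed as additions. The control is described as lacking a model compound, and the sources used here do not give whether it received dichloromethane or the co-factors. In comparisons with the control, a compound therefore cannot be told apart from what was added with it. Each of the 4 culture types was sampled at 1 and 3 days with 3 flasks each, 24 libraries in all, holding 16767477 to 19842379 counts. The doses of the compounds differ, so that compound and dose cannot be told apart. Nothing states that a flask was sampled at 1 day only, or that flasks were independent cultures, so the spread between flasks may be partly technical.

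Lignite is a low-rank coal that retains lignin-derived aromatic structures joined by ether bonds. Phenetole is an alkyl aryl ether, 4-phenoxybenzoic acid is a diaryl ether with a carboxyl group, and 9,10-dibutoxyanthracene is a fused-ring aromatic with butyl ether groups. Filamentous fungi are known to handle such molecules by oxidation with cytochrome P450 enzymes, by conjugation, by efflux pumps and by secreted oxidases. No gene ID carries a name or function in the tables used (0 of 57), so none of the 57 genes can be placed in such a system and all are given by their number.

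The bound on the day 1 differences alone was met by 335 gene models, 86 higher and 249 lower with all compounds. The condition on the control's own time course left 79 of them, and the condition on phenetole at day 3 left the 57. The 3 comparisons of day 1 share the same 3 control flasks, so a control flask that is high or low moves a gene in all of them at once. Among the 20 genes of the higher set, the median difference from the control at day 1 on the log2(FPKM + 1) scale was 1.21 with phenetole, 1.23 with 4-phenoxybenzoic acid and 1.35 with 9,10-dibutoxyanthracene. Among the 37 genes of the lower set, the medians were -1.43, -1.37 and -1.35. In bulk mycelium, less transcript per cell and fewer cells of a given kind or age cannot be told apart.

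The sizes of the differences were close to the bound for most genes. The smallest of a gene's 3 differences was under 1.25 in 18 of the 20 higher genes and in 20 of the 37 lower genes, and it was 1.5 or more in 0 and 5 genes. The 3 compounds gave differences within 0.5 of each other in 13 higher and 24 lower genes. They spanned 1 or more in 3 higher and 5 lower genes, which were thus shifted in 1 direction but not to a like extent. The largest difference fell to phenetole in 20 genes, to 4-phenoxybenzoic acid in 14 and to 9,10-dibutoxyanthracene in 23.

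**Figure D1:**
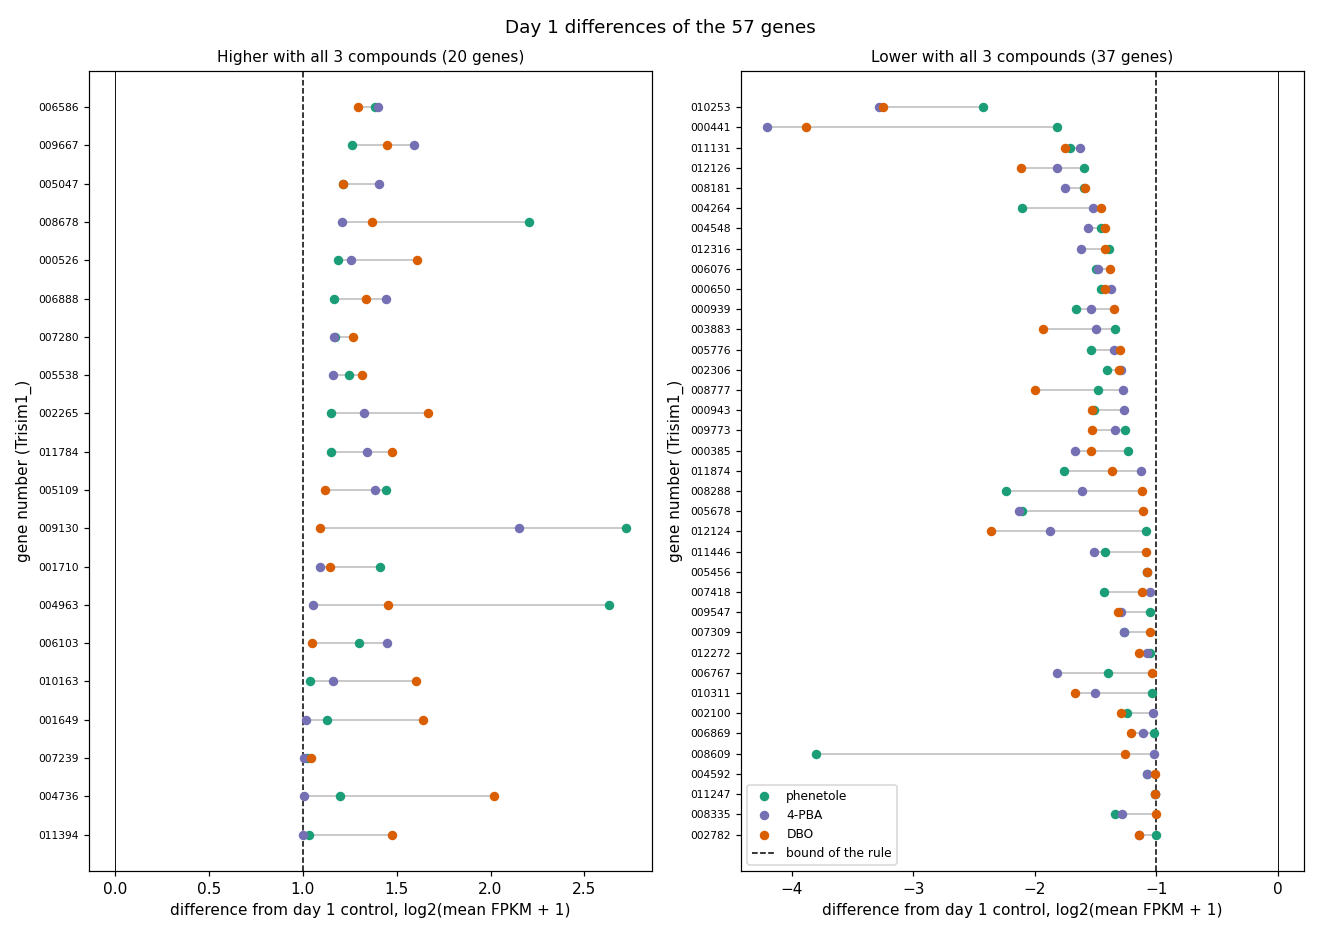
Difference of each of the 57 genes from the day 1 control on the log2(mean FPKM + 1) scale (x axis) for phenetole, 4-phenoxybenzoic acid (4-PBA) and 9,10-dibutoxyanthracene (DBO), with a grey line over the range of the 3 compounds and a dashed line at the bound of the selection. Most points sit just beyond the bound of 1, and the widest ranges belong to Trisim1_009130 and Trisim1_004963 in the higher set and to Trisim1_008609 and Trisim1_000441 in the lower set.

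The flasks themselves separated less often than the group means. All 3 flasks of a compound lay above all 3 control flasks in 11 of the 20 higher genes with phenetole, 12 with 4-phenoxybenzoic acid and 15 with 9,10-dibutoxyanthracene. This held for all 3 compounds at once in 7 of 20, and 1.45% of the 11962 gene models with a count did so. In the lower set the flasks lay below the control in 30, 32 and 29 of 37 genes, and with all 3 compounds in 25 of 37, where 3.86% of gene models did so. The share of gene models is given only for all 3 compounds at once, so the counts for single compounds have no such share beside them. Since the selection used these contrasts, nothing is read from the counts beyond their size. The name of the set, genes changed alike by all compounds, thus describes means: 32 of the 57 genes were apart from the control in every flask of every compound, and 25 were not.

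Trisim1_006586 had the largest smallest difference of the higher set. Its FPKM was 20.4, 21.0 and 40.9 in the control flasks of day 1, 37.0, 97.3 and 85.4 with phenetole, 81.8, 63.3 and 76.9 with 4-phenoxybenzoic acid and 53.6, 79.8 and 73.0 with 9,10-dibutoxyanthracene. One phenetole flask thus lay inside the control range, while the flasks of the other compounds lay above it. The mean FPKM was 2.67, 2.70 and 2.51 times the control, so this gene differed from it by nearly the same factor with each compound.

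Trisim1_002265, among the most abundant of the higher genes, had flasks apart from the control with every compound. Its control flasks of day 1 held 72.9, 56.3 and 66.6 FPKM. With phenetole it had 84.5, 169.5 and 184 FPKM, with 4-phenoxybenzoic acid 137, 175 and 183, and with 9,10-dibutoxyanthracene 197, 215 and 216. The ratio of mean FPKM to the control was thus 2.24, 2.53 and 3.21. The lowest phenetole flask was the closest to the control.

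Trisim1_009130, Trisim1_004963 and Trisim1_008678 had the largest differences with phenetole in the higher set, at 2.72, 2.63 and 2.20 on the log2(FPKM + 1) scale, each larger than with the other compounds. Trisim1_008678 had 8.14, 7.48 and 11.7 FPKM in the control, 28.2, 45.2 and 62.9 with phenetole, 15.5, 17.2 and 34.4 with 4-phenoxybenzoic acid, and 17.5, 23.3 and 34.5 with 9,10-dibutoxyanthracene. Its mean with phenetole was 5.00 times that of the control, against 2.46 and 2.76 times with the others, and no flask overlapped the control. Trisim1_004963, which had the highest mean FPKM of the higher set over all 24 libraries, had 56.4, 60.3 and 127.8 FPKM in the control and 160.5, 453 and 915 with phenetole. It held 110.9, 164.8 and 236 FPKM with 4-phenoxybenzoic acid and 123.1, 219.7 and 332 with 9,10-dibutoxyanthracene, so that in both of these groups a flask lay below the highest control flask.

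Other genes of the higher set were smaller or less even. Trisim1_009667 went from 0.25, 0.86 and 1.19 FPKM in the control to between 1.38 and 5.37 over the 9 treated flasks of day 1, with no overlap. Trisim1_000526 went from 17.3, 13.5 and 20.9 FPKM to between 23.4 and 67.8, also with no overlap. Trisim1_001710, another of the 3 most abundant, had 44.4, 34.4 and 50.9 FPKM in the control but 33.0 in the lowest phenetole flask, beside 173 and 143.5 in the others. The spread among phenetole flasks was thus as wide as the difference from the control.

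A pair of the higher genes rests on few reads. Trisim1_005047, with a recovered length of 72 bp, had 0 counts in each control flask of day 1 and at most 5 counts in any library. Trisim1_006888, of 95 bp, also had 0 counts in the day 1 control and at most 6 in any library. Their FPKM are high for their counts because the models are short. No fold is given for them at so few counts, and both were below the count filter of the test. Trisim1_010163 varied widely in the control of day 1: it held 8.04, 80.7 and 38.8 FPKM, while 8 of the 9 treated flasks of day 1 held 60.2 to 158 and the remaining one 27.9. It was no longer selected when any 1 of the 3 control flasks was left out, and neither were Trisim1_004963 and Trisim1_004736.

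Across the higher set the flask numbered 3 was often the highest. It was the highest of its group in 12 of 20 genes in the day 1 control, 12 with phenetole, 14 with 4-phenoxybenzoic acid and 13 with 9,10-dibutoxyanthracene, and in all 4 groups at once in 6 genes. Among the lower genes it was the highest in all 4 groups in 0 of 37 genes. In the higher set, flask 1 was the lowest of its day 1 group in 14 of 20 genes with phenetole and 13 with 4-phenoxybenzoic acid. The number was 15 with 9,10-dibutoxyanthracene and 8 in the control, with ties counted for flask 1. Flask 3 of the control had the lowest TMM scaling factor (the library-size correction of edgeR) of its group at both days, 0.74 at day 1 and 0.79 at day 3, and the phenetole libraries of day 1 had 0.62 to 0.76, against 0.98 to 1.298 in the other libraries but 1, which had 0.82. With FPKM on TMM library sizes, the selection gave 20 higher genes, 19 of them shared, and 39 lower genes, 36 of them shared. The part of these scaling factors in the patterns of flasks 1 and 3 was not tested.

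Trisim1_010253 had the largest smallest difference of the lower set. It had 68.3, 17.1 and 10.2 FPKM in the control of day 1, 6.06, 5.24 and 4.01 with phenetole, 0.74, 1.66 and 4.73 with 4-phenoxybenzoic acid, and 4.12, 1.67 and 1.61 with 9,10-dibutoxyanthracene. The groups did not overlap, but the control mean of 31.9 ± 31.7 (SD, n = 3) rests on its first flask. The control mean was 6.24, 13.4 and 12.9 times that of the compounds.

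Trisim1_011131 had the smallest spread of day 1 control flasks, relative to their mean, of the lower set. Its control flasks of day 1 held 8.11, 8.60 and 8.07 FPKM, a mean of 8.26 ± 0.29 (SD, n = 3), and the 9 treated flasks held 1.25 to 2.66. Every treated flask was thus well below the control, by 4.53 times with phenetole, 4.13 times with 4-phenoxybenzoic acid and 4.73 times with 9,10-dibutoxyanthracene in the means. Trisim1_008181 had the same pattern at a lower level, 4.44, 2.26 and 4.63 FPKM in the control and 0.21 to 1.04 over the treated flasks.

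Among the abundant lower genes, Trisim1_012126 had 200.8, 151 and 245 FPKM in the control, 75.6, 79.1 and 40.8 with phenetole, 47.1, 66.4 and 54.1 with 4-phenoxybenzoic acid, and 67.2, 36.2 and 32.3 with 9,10-dibutoxyanthracene. No treated flask reached the lowest control flask, and the control mean was 3.05, 3.56 and 4.40 times that of the compounds. Trisim1_003883 had 118, 102.6 and 87.1 FPKM in the control and 22.4 to 65.4 over the 9 treated flasks, again with no overlap. Control mean and treated mean of Trisim1_003883 differed by 2.56 times with phenetole, 2.88 times with 4-phenoxybenzoic acid and 3.92 times with 9,10-dibutoxyanthracene.

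Trisim1_008609 had the highest mean FPKM of the lower set and the widest gap between compounds among genes whose flasks were apart. It held 483, 872 and 621 FPKM in the control, 17.4, 76.1 and 45.8 with phenetole, 223, 401 and 352 with 4-phenoxybenzoic acid, and 164, 272 and 389 with 9,10-dibutoxyanthracene. The control mean was 14.2 times the phenetole mean but 2.03 and 2.39 times those of the other compounds, so this gene met the bound narrowly with 4-phenoxybenzoic acid.

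Some lower genes were high in 1 control flask of day 1 and not in the others. Trisim1_000441 had 1300, 33.0 and 71.8 FPKM in the control of day 1, against 48.0 to 240.4 with phenetole, 15.1 to 40.3 with 4-phenoxybenzoic acid and 16.8 to 49.4 with 9,10-dibutoxyanthracene. Leaving aside the first flask, the control lay within the range of the treated flasks. Likewise Trisim1_005678 had 2.40, 35.6 and 5.01 FPKM in the control, and its treated flasks held 1.06 to 9.17. Trisim1_011247, of 101 bp, had 0, 0 and 4 counts in the control and 0 counts in all 9 treated flasks of day 1. Over the 57 genes, the highest and lowest control flask of day 1 differed over 3-fold in FPKM + 1 in 11, or 19.3%, where 8.83% of gene models did so.

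**Figure D2:**
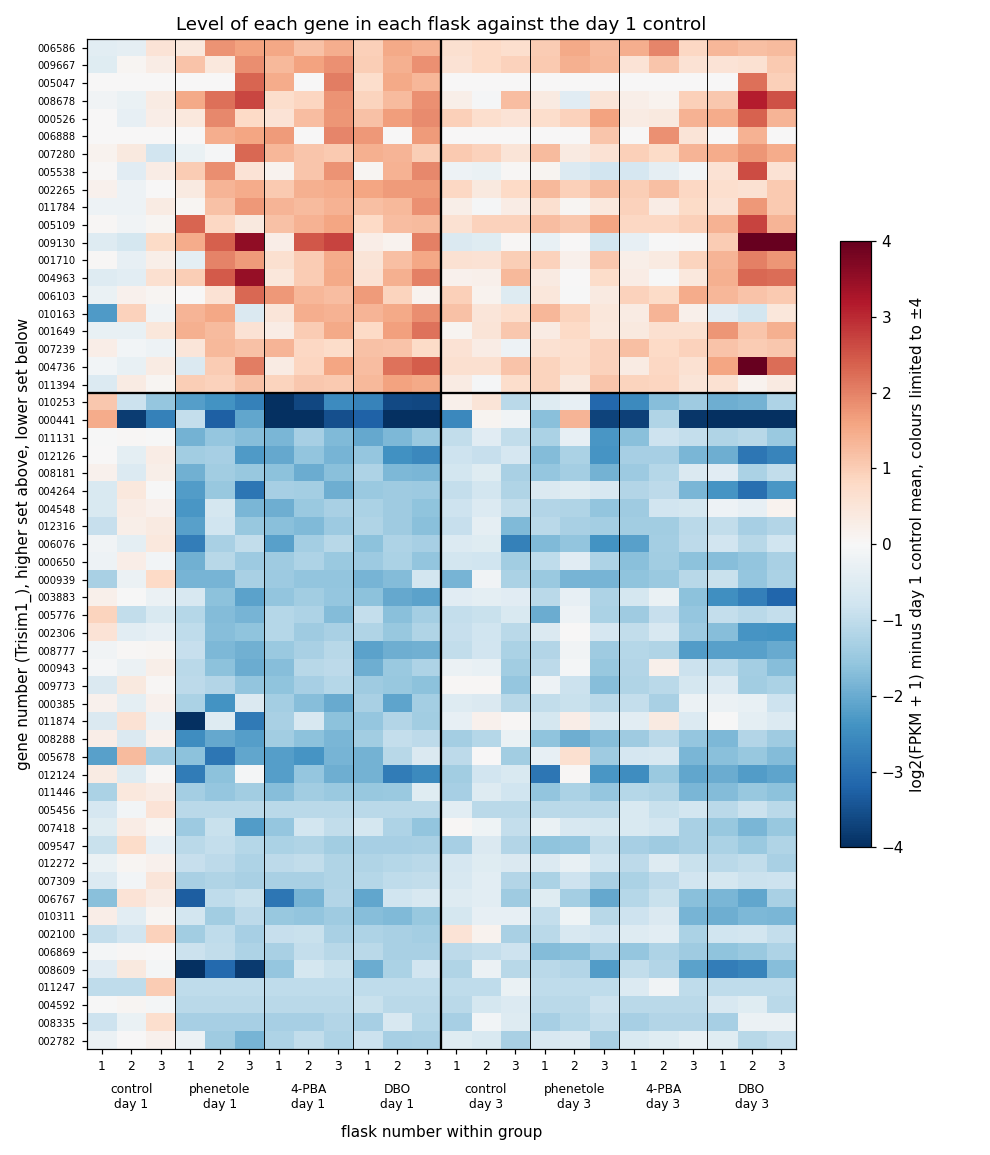
Level of each of the 57 genes (rows) in each of the 24 flasks (columns) as log2(FPKM + 1) minus that of the day 1 control mean, red for higher and blue for lower. The higher set above the line is mostly red in the treated flasks of day 1 and partly in the control of day 3. Some treated flasks lie below the control mean, such as phenetole flask 1 of day 1 in Trisim1_001710 and Trisim1_004736. Flask 2 with 9,10-dibutoxyanthracene (DBO) at day 3 stands out in Trisim1_009130 and Trisim1_004736. Trisim1_000441 and Trisim1_005678 are red in 1 control flask of day 1 and blue in the other control flasks of that day.

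Membership was sensitive to single flasks. When each of the 18 flasks that the selection used was left out in turn, a higher gene stayed selected in a median of 15 of the 18 and none stayed in all. Among lower genes the median was also 15, and 4 genes stayed in all 18: Trisim1_011131, Trisim1_003883, Trisim1_000943 and Trisim1_009773. With each control flask of day 1 left out, 8 of the 20 higher and 6 of the 37 lower genes stayed selected all 3 times. In the higher set Trisim1_010163, Trisim1_004963 and Trisim1_004736 stayed in 0 of these 3 settings. In the lower set this held for Trisim1_002306, Trisim1_000939, Trisim1_005776, Trisim1_005678, Trisim1_011446, Trisim1_009547, Trisim1_006767 and Trisim1_011247. These names follow from the selection's own values and carry no test.

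The genes nearest the bound were as close to it outside as inside. In the higher set, Trisim1_011394 and Trisim1_004736 had smallest differences of 1.00 and 1.01, while Trisim1_007013 and Trisim1_005657 missed with 0.99 and 0.98. In the lower set, Trisim1_002782 and Trisim1_008335 entered with 1.00 and 1.01, and Trisim1_007740 and Trisim1_005763 stayed out with 0.99 and 0.99. At the bound there was thus no gap between genes inside and outside the set.

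The genes differed in level and length. Mean FPKM over all libraries had a median of 30.4 in the higher set and 3.75 in the lower set, against 9.59 over the gene models with a count. FPKM stayed under 5 in every group mean in 4 of 20 higher and 14 of 37 lower genes, together 31.6% of the 57, where 33.1% of gene models with a count did so. The median length recovered from the FPKM was 1178 bp in the higher set, 1536 bp in the lower set and 1467 bp over those gene models. By gene number the set was scattered: 0 genes had a member as the next number, and 4 of 57, or 7.02%, had another member within 5 numbers, where 4.46% of all gene models had one. These were Trisim1_012124 with Trisim1_012126 and Trisim1_000939 with Trisim1_000943, named after their values were seen, and each pair was lower.

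The higher set took 0.0605% ± 0.0070 (SD, n = 3) of all counts in the day 1 control, 0.116% ± 0.0080 with phenetole, 0.183% ± 0.026 with 4-phenoxybenzoic acid and 0.209% ± 0.028 with 9,10-dibutoxyanthracene. The lower set took 0.335% ± 0.139 in the control, 0.0541% ± 0.012, 0.125% ± 0.022 and 0.115% ± 0.012 with the same compounds. These are shares of raw totals. With TMM-scaled totals, an alternative added after seeing the data, the phenetole shares became 0.174% ± 0.017 and 0.0802% ± 0.0087, and the higher set then held 0.160% with 4-phenoxybenzoic acid and 0.189% with 9,10-dibutoxyanthracene. The TMM-scaled shares of the control, and of the lower set with these 2 compounds, are not given here. The scaled values are therefore not to be set against the raw ones. Both sets are small parts of the transcriptome, and Trisim1_008609 and Trisim1_000441 were the most abundant of the lower genes. They held 57842 and 44604 counts in the day 1 control, against 18963 for Trisim1_012126, the next. Flask 1 held 42192 of the 44604. The control share of the lower set and its SD thus depend strongly on these 2 genes.

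The day 3 control mostly lay on the side of the day 1 control where the compounds were. This comparison uses the day 1 control that chose the genes, and a control that is low by chance favours both a place in the higher set and a positive difference, so nothing is read from the signs. In the higher set the control difference of day 3 from day 1 had a median of 0.64 on the log2(FPKM + 1) scale, positive in 16 and negative in 2 of 20 genes. For the lower set its median was -0.77, and it was negative in 36 of 37. Trisim1_006586, for example, stood at 43.7, 47.9 and 44.7 FPKM in the day 3 control, above the 20.4, 21.0 and 40.9 of day 1. Trisim1_012126 stood at 111.7, 105.2 and 123.1 FPKM, below the lowest day 1 control flask of 151. Phenetole at day 3, held near the control by the selection, differed from it by a median of 0.096 in the higher and -0.29 in the lower set.

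At day 3 the remaining compounds can be tested on libraries that the selection did not use. The day 3 control did enter it, as a bound. In the lower set, control levels of day 3 had to stay near a day 1 control that was above every compound, which favours genes with a high day 3 control, and in the higher set the reverse, so the 2 comparisons with the day 3 control are only partly independent of the selection. The comparison of the compounds with each other at day 3 uses none of its libraries. A total of 51 genes passed the filter on low counts, 18 higher and 33 lower. The 6 that did not were Trisim1_005047 and Trisim1_006888 of the higher set and Trisim1_005456, Trisim1_011247, Trisim1_004592 and Trisim1_008335 of the lower set, with at most 14 counts in any library.

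With 4-phenoxybenzoic acid, 0 of the 51 genes were called against the control at day 3 (edgeR quasi-likelihood test, Benjamini-Hochberg adjusted p under 0.05 over 10842 loci). Over all loci 0.0369% were called higher and 0.0369% lower, 4 each. An unadjusted edgeR p under 0.05 was reached by 2 of 18 higher and 3 of 33 lower genes, where 1093 of all 10842 loci tested reached it. DESeq2 and limma called 0 of the 51 genes as well. The median edgeR log2 difference was 0.06 in the higher set, positive in 11 of 18, against 0.02 over all loci tested. In the lower set it was -0.57, and the difference was positive in 2 of 33. The flasks lay beyond the control in the day 1 direction in 2 of 20 higher genes, where 7.57% of gene models with a count were higher in this way, and in 5 of 37 lower genes, where 8.08% were lower.

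The smallest adjusted p with 4-phenoxybenzoic acid belonged to Trisim1_007239, a gene of the higher set. It held 13.5, 9.96 and 11.1 FPKM against 8.48, 6.90 and 4.55 in the control of day 3, with no overlap. The edgeR log2 difference was 0.80 ± 0.26 (SE, adjusted p = 0.262), which missed the threshold. Trisim1_006586 had 77.6, 109.9 and 49.7 FPKM against 43.7, 47.9 and 44.7, and its edgeR log2 difference of 0.82 ± 0.32 also missed it (adjusted p = 0.373).

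With 9,10-dibutoxyanthracene, 17 of the 51 genes were called at day 3, all in their day 1 direction. In the higher set 6 of 18 were called higher than the day 3 control, where 5.24% of all loci tested were called higher. In the lower set 11 of 33 were called lower than the day 3 control, where 10.8% of all loci tested were called lower. The median edgeR log2 difference was 0.97 in the higher set and -1.05 in the lower set, against -0.02 over all loci tested. The flasks lay above the control in 13 of 20 higher genes, where 18.9% of gene models with a count did so, and below it in 17 of 37 lower genes, where 19.1% did so. The counts of called genes depended on single flasks: without flask 2 of 9,10-dibutoxyanthracene 6 genes were called, 1 higher and 5 lower, without flask 2 of the control 7, 1 higher and 6 lower, and without flask 3 of 9,10-dibutoxyanthracene 11.

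Trisim1_009130 had the largest difference of the higher set from the day 3 control. It was at 2.70, 2.96 and 4.78 FPKM in the day 3 control, 3.51, 4.61 and 2.31 with phenetole and 3.47, 4.46 and 4.76 with 4-phenoxybenzoic acid, but at 10.3, 233 and 93.5 with 9,10-dibutoxyanthracene. All 3 flasks of 9,10-dibutoxyanthracene were above every other flask of day 3, although they differed widely among themselves. The mean was 32.3 times that of the control, and the edgeR log2 difference was 4.99 ± 0.93 (SE, adjusted p = 0.00209). At day 1 the same gene had been highest with phenetole, at 14.7, 27.97 and 64.5 FPKM against 2.91, 2.39 and 8.40 in the control, and only 5.69, 5.15 and 21.7 with 9,10-dibutoxyanthracene.

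The other higher genes called with 9,10-dibutoxyanthracene were mostly highest in its flask 2. Trisim1_004736 had 49.4, 276 and 77.6 FPKM against 25.0, 25.1 and 35.8 in the control, an edgeR log2 difference of 2.20 ± 0.58 (SE, adjusted p = 0.0147). Trisim1_005538 had 1.72, 10.1 and 1.71 FPKM against 0.57, 0.49 and 0.85, a difference of 2.80 ± 0.91 (SE, edgeR adjusted p = 0.0413). In both the flasks did not overlap. Trisim1_008678 had 20.1, 87.5 and 58.5 FPKM against 10.96, 8.85 and 22.5, so that a control flask lay above the lowest treated one, with a difference of 1.95 ± 0.49 (SE, edgeR adjusted p = 0.0116). Trisim1_011784 was above the day 3 control by 1.03 ± 0.34 and Trisim1_007239 by 0.86 ± 0.26 on the edgeR log2 scale, with adjusted p of 0.0421 and 0.0303. Of the 12 alternative analyses, Trisim1_011784 was not called in 6, Trisim1_005538 and Trisim1_007239 in 5 each, Trisim1_004736 in 3 and Trisim1_008678 in 2. Without flask 2 of 9,10-dibutoxyanthracene the difference of Trisim1_005538 was 1.39 (edgeR adjusted p = 0.367). Flask 2 was the highest with 9,10-dibutoxyanthracene in 5 of these 6 genes and in 12 of the 20 of the higher set.

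Not all of the higher set took part. Trisim1_002265, at 105.3, 99.9 and 136 FPKM with 9,10-dibutoxyanthracene and 118, 86.8 and 114 in the control of day 3, had an edgeR log2 difference of 0.06 ± 0.24 (adjusted p = 0.893). Trisim1_011394 and Trisim1_009667 had differences of -0.01 and -0.06, and both flask ranges overlapped. Trisim1_010163 had the opposite sign, at 30.9, 24.9 and 58.5 FPKM against 97.3, 60.5 and 67.8, but its difference of -1.02 ± 0.59 missed the threshold (edgeR adjusted p = 0.238).

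**Figure D3:**
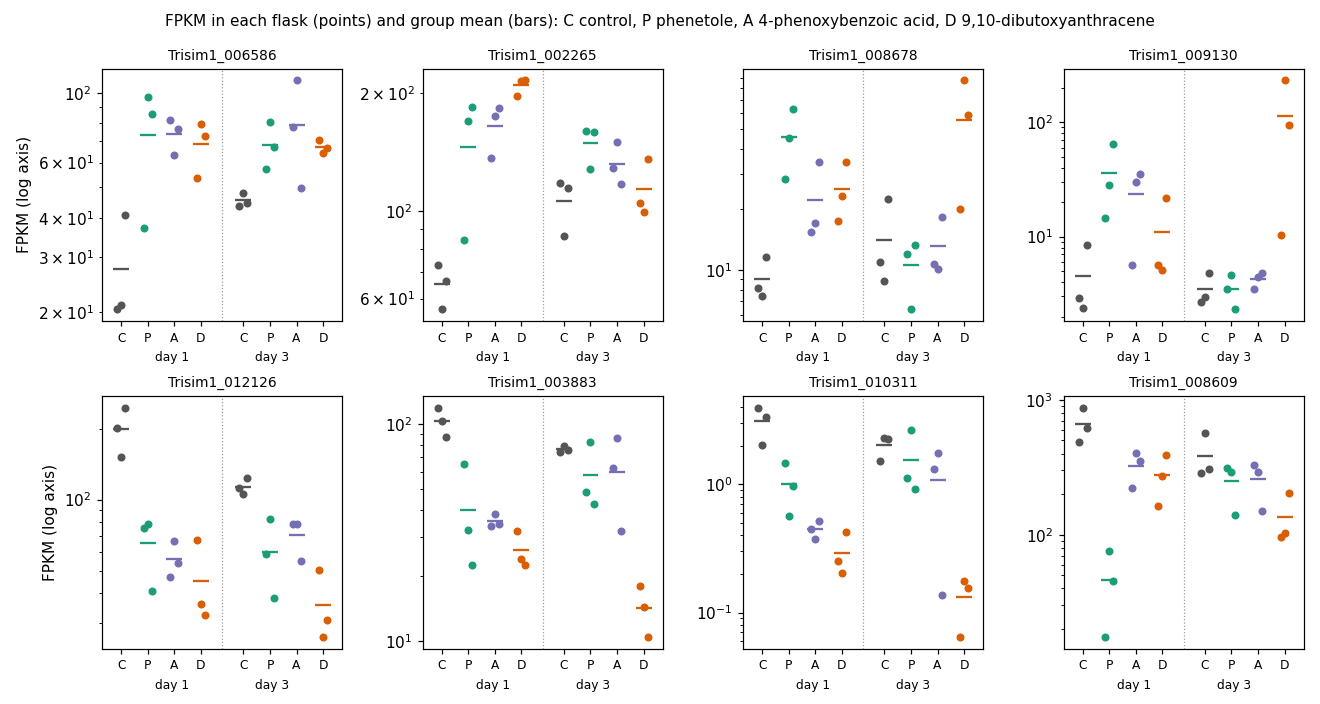
FPKM on a log axis in each flask (points) and the group mean (bars) at days 1 and 3 for 4 genes of the higher set (top row) and 4 of the lower set (bottom row), with control in grey, phenetole in green, 4-phenoxybenzoic acid in purple and 9,10-dibutoxyanthracene in orange. At day 3 Trisim1_008678 and Trisim1_009130 are high with 9,10-dibutoxyanthracene, Trisim1_002265 overlaps the control, and the 4 lower genes have their lowest mean of that day with 9,10-dibutoxyanthracene.

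Among the lower genes called with 9,10-dibutoxyanthracene, Trisim1_003883 had the smallest adjusted p. Its day 3 flasks held 17.9, 14.4 and 10.4 FPKM, against 74.2, 78.8 and 75.6 in the control, 48.5, 82.5 and 42.8 with phenetole and 62.8, 85.5 and 32.3 with 4-phenoxybenzoic acid. The flasks with 9,10-dibutoxyanthracene were below every other flask of that day. The control mean was 5.35 times higher, and the edgeR log2 difference was -2.46 ± 0.37 (SE, adjusted p = 0.000548).

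Trisim1_010311 had 0.064, 0.18 and 0.16 FPKM with 9,10-dibutoxyanthracene at day 3 and 1.53, 2.30 and 2.26 in the control, a difference of -3.90 ± 0.77 (SE, edgeR adjusted p = 0.00283). One flask of 4-phenoxybenzoic acid, at 0.14, was as low, beside 1.31 and 1.77 in the others. Trisim1_000441 had 24.9, 14.0 and 10.6 FPKM against 77.4, 508 and 429, with a difference of -4.39 ± 1.32 (SE, edgeR adjusted p = 0.0297), and its control flasks varied widely at both days. This gene was no longer called in 5 of 12 alternative analyses.

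Trisim1_012126 held 50.4, 26.1 and 30.9 FPKM, against 111.7, 105.2 and 123.1 in the day 3 control. It was lower by 1.70 ± 0.34 on the edgeR log2 scale (SE, adjusted p = 0.00323). Trisim1_004264 held 10.9, 6.63 and 11.3 FPKM against 31.0, 36.4 and 25.8, lower by 1.73 ± 0.33 (SE, edgeR adjusted p = 0.00239). Trisim1_002306 held 23.5, 14.5 and 14.3 FPKM against 40.8, 44.7 and 36.9, lower by 1.27 ± 0.30 (SE, edgeR adjusted p = 0.00759). None of the flasks of these genes overlapped, and the 3 together with Trisim1_003883, Trisim1_010311 and Trisim1_009130 were called in all 12 alternative analyses. Trisim1_008609 was lower by 1.56 ± 0.49, at 96.7, 103.8 and 203 FPKM against 288, 566 and 305 (edgeR adjusted p = 0.0361). It was not called in 3 of the 12.

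The remaining lower genes called were Trisim1_008777, Trisim1_007418, Trisim1_006869 and Trisim1_012272, with edgeR log2 differences of -1.78 to -0.60. The smaller differences of Trisim1_006869 and Trisim1_012272 were not called in 9 and 7 of the 12 alternatives, and those of Trisim1_008777 and Trisim1_007418 in 3 and 1. Trisim1_011131 held 3.04, 3.28 and 2.28 FPKM at day 3 against 3.64, 5.71 and 3.68 in the control, and its difference of -0.64 ± 0.46 missed the threshold (edgeR adjusted p = 0.359). Trisim1_010253 had 7.58, 7.81 and 13.0 FPKM against 36.4, 45.5 and 14.7, apart from the control in every flask but also not called, at -1.81 ± 0.75 (edgeR adjusted p = 0.101). Trisim1_004548 was on the other side, at 5.83, 5.19 and 7.68 FPKM against 3.42, 4.34 and 2.91, with a difference of 0.77 ± 0.47 (edgeR adjusted p = 0.27).

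**Figure D4:**
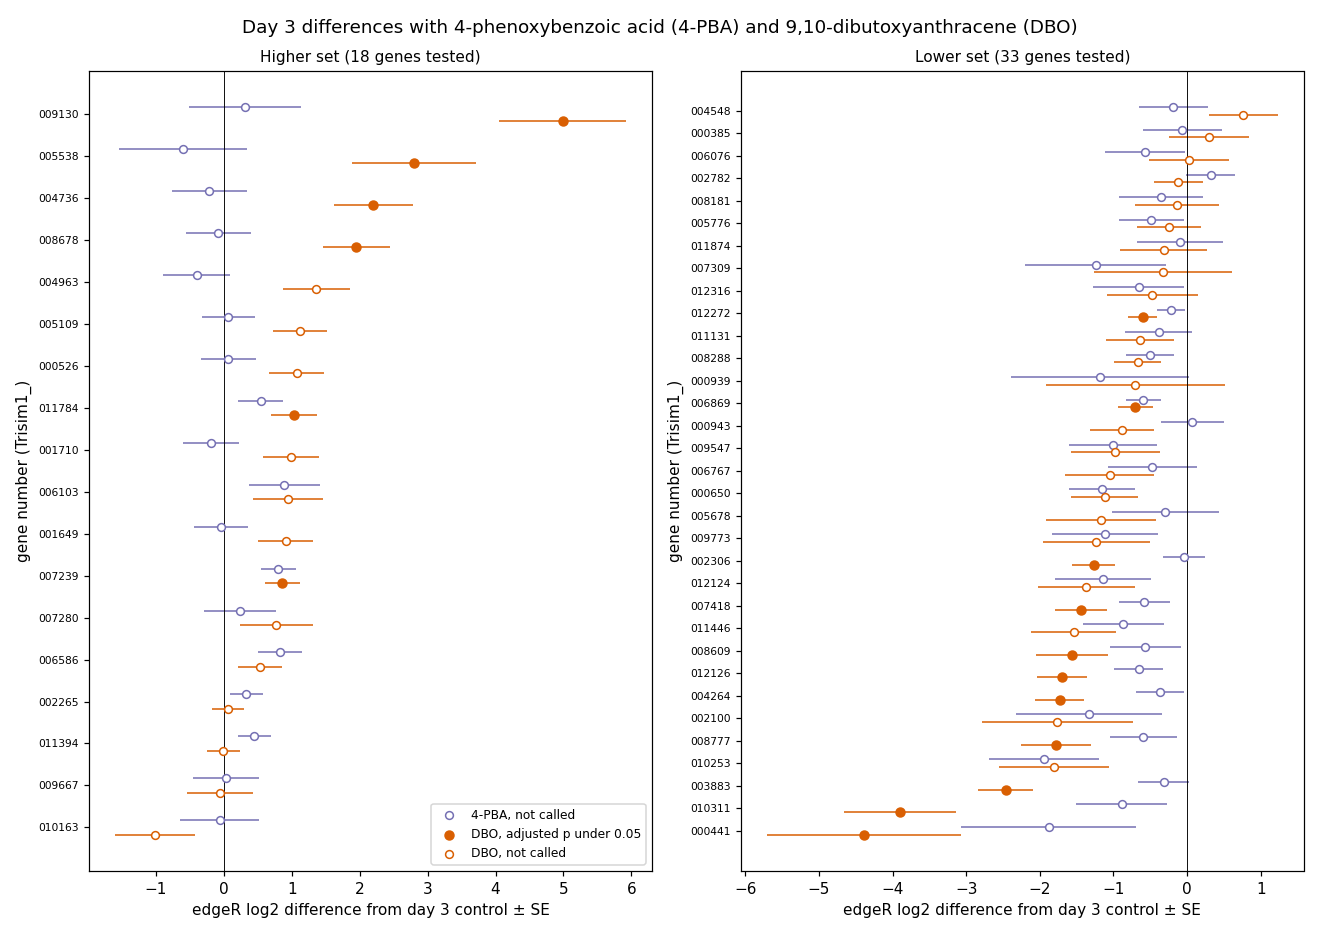
edgeR log2 difference from the day 3 control, with its standard error, for the 18 higher and 33 lower genes tested, with 4-phenoxybenzoic acid (4-PBA, purple) and 9,10-dibutoxyanthracene (DBO, orange), filled where the adjusted p was under 0.05. All 17 filled points are with 9,10-dibutoxyanthracene and lie in the day 1 direction of their gene, and both compounds are measured against the same 3 control flasks.

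When the compounds were set against each other at day 3, at 5 mg/L of 9,10-dibutoxyanthracene and 10 mg/L of 4-phenoxybenzoic acid, 11 of the 51 genes were called. In the higher set 6 of 18 were higher with 9,10-dibutoxyanthracene, where 9.02% of all loci tested were called higher. Of the lower set, 5 of 33 were lower, where 10.7% of all loci were called lower. The doses and the volumes of dichloromethane differ, so that the difference cannot be assigned to the compounds. The count was 5 without flask 2 of either compound, 7 without flask 1 of 4-phenoxybenzoic acid and 7 without flask 3 of 9,10-dibutoxyanthracene.

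The higher genes called in that comparison were Trisim1_009130, Trisim1_005538, Trisim1_004736, Trisim1_008678, Trisim1_004963 and Trisim1_001710. Trisim1_004963 had 222, 408 and 386 FPKM with 9,10-dibutoxyanthracene and 99.8, 80.5 and 109.4 with 4-phenoxybenzoic acid, with a difference of 1.76 ± 0.50 (SE, edgeR adjusted p = 0.0187). Trisim1_001710 had 112, 179 and 149.5 FPKM against 50.8, 56.3 and 80.7, with a difference of 1.18 ± 0.41 (SE, edgeR adjusted p = 0.0489). Both had no overlap between the compounds, and neither was called against the control, where their differences were 1.36 ± 0.49 and 0.99 ± 0.41. The lower genes called were Trisim1_003883, Trisim1_010311, Trisim1_004264, Trisim1_002306 and Trisim1_012126. The difference was -2.14 ± 0.37 for Trisim1_003883 (SE, edgeR adjusted p = 0.00118) and -1.04 ± 0.34 for Trisim1_012126 (adjusted p = 0.0343). Of the 17 genes called against the control, 9 were called here too.

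By share of all counts, the higher set stood at 0.206% ± 0.112 (SD, n = 3) with 9,10-dibutoxyanthracene at day 3, at 0.156% ± 0.016 with 4-phenoxybenzoic acid, at 0.145% ± 0.020 with phenetole and at 0.108% ± 0.017 in the control. The wide error of the first follows its flask 2. The lower set stood at 0.0622% ± 0.0066 with 9,10-dibutoxyanthracene, 0.163% ± 0.052 with 4-phenoxybenzoic acid, 0.212% ± 0.143 with phenetole and 0.224% ± 0.081 in the control. These are shares of raw totals, not scaled by TMM. The mean TMM factors were 0.929, 1.275, 1.072 and 1.017 in the same order, so the shares are not on the tested scale. On that scale the median log2 difference of the higher set with 4-phenoxybenzoic acid was 0.06.

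Flasks of a group also varied together across the genes. As a description over the 24 libraries, the mean pairwise correlation of log2 deviations from the group mean was 0.182 among the 18 higher genes tested, 0.144 among the 33 lower genes tested, and 0.00145 over all 10842 loci tested. By these correlations, the genes of a set were not independent of each other within a flask. The cause of the correlations was not tested.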

How the data were processed

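RNA of 24 mycelium samples was measured by poly-A RNA-seq. The authors deposited raw read counts per gene, made with featureCounts 1.5.0-p3 per the submitters' processing notes, and FPKM for the same libraries; the sources used here do not give the aligner, build or annotation. The deposited FPKM were rebuilt from counts, gene length and totals corrected by median-of-ratios factors: 100% of 12728 lengths recovered from them were whole within 0.01 bp. Samples were grouped by the labels into 8 groups of 3 flasks. The genes were selected on the FPKM as the report states, with a pseudocount of 1, and folds are ratios of mean FPKM without it. The genes and the tests were chosen with earlier results of these data known.

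The tests on counts used edgeR 4.0.16 in R 4.3.3. filterByExpr with a minimum count of 10 kept 10842 loci, TMM gave the scaling, and 1 quasi-likelihood fit held all 24 libraries with 8 group means. Contrasts were tested with the two-sided F test and adjusted by the Benjamini-Hochberg method over all loci. The standard error is the log2 difference divided by the square root of F. The fit was also run on data simulated from it, where most 2-fold changes were not recovered. Totals of 16767477 to 19842379 counts limit genes of few counts most. The overlap of flasks was read on FPKM over the 11962 gene models with a count. Alternatives were other pseudocounts, the median of flasks, TMM-scaled FPKM, RLE scaling, no filter, the compared groups alone, a flask block, DESeq2 1.42.0, limma 3.58.1 on log2(FPKM + 1), and each flask left out.

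Genes were named by rule: in each direction the 5 with the largest smallest difference, the 3 with the highest mean FPKM, the 2 on each side of the bound, and the 3 called at day 3 with the largest difference and flasks apart. The other genes were named after their values were seen.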

Additional observations from a re-analysis of the deposited data

How the results depend on the processing

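The selection depended on the pseudocount. With 0.1 FPKM it gave 36 higher genes, 17 of them shared with the 20, and 69 lower genes, 22 shared with the 37. With 5 FPKM it gave 11 higher (7 shared) and 18 lower (11 shared). The median of flasks gave 25 and 34, of which 7 and 17 were shared. TMM-scaled FPKM gave 20 and 39, of which 19 and 36 were shared. Leaving out 1 flask gave 10 to 29 higher and 32 to 50 lower genes, the lowest count of higher genes without phenetole flask 3 of day 1. The cause of these shifts was not tested.

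At day 3 the count of genes called with 9,10-dibutoxyanthracene was 17, and 6 to 13 with 1 flask left out, where fewer samples were fitted. It was 21 with DESeq2, 15 with limma, 16 without a filter and 24 with the compared groups alone. Against 4-phenoxybenzoic acid the count of 11 became 5 to 14 with 1 flask left out, 12 with DESeq2, 9 with limma, 10 without a filter and 14 with the compared groups alone. With 4-phenoxybenzoic acid against the control it was 0 in all 12 alternatives. The median log2 difference with 4-phenoxybenzoic acid was 0.083 to 0.23 in the higher and -0.71 to -0.29 in the lower set with 1 flask left out. With 9,10-dibutoxyanthracene the lower set had -1.18 to -0.81, -1.004 with RLE scaling and -0.57 on the log2(FPKM + 1) scale over all 37 genes. None of the 17 called genes reversed.

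Flask numbers recur in the groups. In the 3 contrasts tested at day 3, deviations of same-numbered flasks correlated by -0.143 to 0.154, so a number was not taken as a pairing there. The day 1 and phenetole groups were not checked in this way. With flask number as a replicate block, 0, 18 and 12 genes were called in the 3 contrasts. The 6 genes under the count filter could not be tested, and at this depth a missing call does not show that a gene was unmoved.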
